A study of Mus musculus with 31 samples.

Results

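The imprinted growth genes were followed through every probe that the arrays carry under their names: *H19*, *Igf2*, *Igf2r*, *Meg3*, *Dlk1*, *Cdkn1c*, *Peg3*, *Mest*, *Plagl1* and *Grb10*. These 10 genes had 25 of the 55681 different probes, on 43 spots, and were chosen by name as autosomal genes that are mostly expressed from 1 parental copy, several of them at loci with a long noncoding RNA. RNA came from single E13.5 eyes of C57BL/6N mice, namely 3 WT females, 3 WT males, 3 hemizygous *Ftx*-/Y males and 11 homozygous *Ftx*-/- females. *Ftx* is an X-linked noncoding RNA gene near *Xist*, and the targeted allele also lost *miRNA374* and *miRNA421*, which lie in an intron of *Ftx*. All were whole eyes of normal appearance without their pigmented epithelium, which was taken off by surgery, so every type of cell left in the eye contributed to 1 RNA sample. In such samples, fewer cells of a type and less RNA per cell cannot be told apart.

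An imprinted gene carries a DNA methylation mark set in the egg or the sperm, and the mark decides which parental copy is transcribed. Many imprinted genes act on growth. As a rule, genes expressed from the paternal copy, such as *Igf2*, promote growth of the embryo, and genes expressed from the maternal copy, such as *Igf2r*, *Cdkn1c*, *H19* and *Grb10*, restrain it. *H19* and *Meg3* are maternally expressed noncoding RNAs that share their loci with the paternally expressed *Igf2* and *Dlk1*. In the eye, *Cdkn1c* is a cell cycle inhibitor of lens and retina. The arrays read total RNA of both copies and give no allelic information.

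The arrays are 1-colour (Cy3) Agilent arrays, and a value is the normalized signal of a probe, on a linear or, where said, a log2 scale. Each *Ftx*-/- eye was measured on 2 arrays, which were averaged (correlation 0.994 to 0.999 over the probes tested, with a median absolute difference of 0.05 on the log2 scale for the probes of the 10 genes), and every other eye on 1, 31 arrays in all. The study's methods describe duplicate hybridizations and a further WT female, and those other arrays were not analysed here. Between 48.2% and 70.4% of the probe spots of an array were well above background, and 0 spots of the 10 genes were saturated. WT eyes and *Ftx*-/Y eye 1 shared slide 1, and *Ftx*-/Y eyes 2 and 3 were on slide 2. The *Ftx*-/- eyes were on slides 2 (eyes 1 to 3), 3 (eyes 4 to 7) and 4 (eyes 8 to 11). Among female eyes, slide and genotype thus cannot be told apart by design, and only the *Ftx*-/Y eyes link slide 1 to another slide. As a check of the labels, the *Ftx* probe exceeded background clearly on 3 of 3 arrays of either WT group, on 0 of 3 arrays of *Ftx*-/Y and on 9 of 22 of *Ftx*-/- eyes (mean signal 101, 106, 16.5 and 21.7), and *Eif2s3y* on the Y chromosome gave 1520 to 2060 in males and at most 34.2 in females. All 10 lens markers were well above background on every array, as the tissue label requires.

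A mean signal above 500 in WT females was the minimum for a test, and 19 of the 25 probes, from 9 of the 10 genes, reached it (14052 of all probes). The 6 others were both *Dlk1* probes, 2 of 3 *Meg3* probes, 1 of 2 *Peg3* probes and 1 of 7 *H19* probes. *Igf2*, *Igf2r*, *Cdkn1c* and *Grb10* have 1 probe each, *Mest* 3 and *Plagl1* 4. Since the minimum was set on WT females, a gene that was dim there, such as *Dlk1*, could not pass whatever its level in *Ftx*-/- eyes.

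*H19* and *Meg3* are noncoding RNAs read by several probes each. The sequences of 6 *H19* probes, of which 2 were called below, and of 2 *Meg3* probes are shown from 5′ to 3′ as the arrays carry them, with positions in mm9, so that the stretch of transcript behind each value can be seen. Capitals are not used, since no base is singled out.
*H19* A_30_P01026972 (chr7:149762173-149762232, - strand): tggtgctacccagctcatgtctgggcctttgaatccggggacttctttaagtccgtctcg
*H19* A_30_P01028827 (chr7:149762113-149762172, - strand): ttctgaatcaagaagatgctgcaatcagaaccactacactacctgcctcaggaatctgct
*H19* A_30_P01028007 (chr7:149761957-149762016, - strand): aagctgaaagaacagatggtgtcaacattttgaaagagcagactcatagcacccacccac
*H19* A_30_P01025068 (chr7:149761756-149761815, - strand): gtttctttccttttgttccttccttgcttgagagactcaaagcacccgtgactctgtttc
*H19* A_30_P01021588 (chr7:149761693-149761752, - strand): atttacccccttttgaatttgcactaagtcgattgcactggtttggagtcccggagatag
*H19* A_55_P1961127 (chr7:149761492-149761551, - strand): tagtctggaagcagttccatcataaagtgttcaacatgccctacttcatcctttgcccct
*Meg3* A_52_P196568 (chr12:110799558-110799617, + strand): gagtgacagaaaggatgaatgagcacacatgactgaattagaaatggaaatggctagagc
*Meg3* A_51_P455997 (chr12:110809678-110809737, + strand): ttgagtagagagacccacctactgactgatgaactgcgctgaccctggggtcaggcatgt

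The first pair of *H19* probes abut, with no base between them. A further *H19* probe, A_55_P1961125, lies upstream of these. It did not stand well above background on any array of WT eyes, and did so on 5 of 22 arrays of *Ftx*-/- and 1 of 3 of *Ftx*-/Y eyes, so no fold is given for it. Of the 3 *Meg3* probes only A_51_P455997 reached the minimum.

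Promoter windows of RefSeq (GRCm38.p6, 300 bases around a transcript start) were at hand for 8 of the 10 genes, not for *H19* and *Cdkn1c*. CG dinucleotides, the bases at which imprinting marks are set, numbered 45 in the richest *Grb10* window, 34 in that of *Igf2r*, 26 in that of *Plagl1*, 24 in that of *Igf2*, 17 in that of *Mest*, 13 in those of *Peg3* and *Meg3* and 9 in that of *Dlk1*. The median over all 32851 windows was 7, and 16.9% of them held as many as *Plagl1* and 31.4% as many as *Mest*. The windows of these last genes are printed because probes of them had the smallest limma adjusted p of the tested member probes below. Other probes of the same genes differed from these in sign in females. Both promoters are also known to be methylated on the maternal copy. Capitals mark CG, read on the strand shown.
*Mest* (chr6:30737800-30738099, + strand): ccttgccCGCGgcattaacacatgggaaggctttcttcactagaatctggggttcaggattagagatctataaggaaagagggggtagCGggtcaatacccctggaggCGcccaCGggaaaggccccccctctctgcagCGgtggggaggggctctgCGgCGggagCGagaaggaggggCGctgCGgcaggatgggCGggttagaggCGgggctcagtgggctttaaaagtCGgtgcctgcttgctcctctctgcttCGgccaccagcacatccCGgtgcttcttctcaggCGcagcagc
*Plagl1* (chr10:13090582-13090881, + strand): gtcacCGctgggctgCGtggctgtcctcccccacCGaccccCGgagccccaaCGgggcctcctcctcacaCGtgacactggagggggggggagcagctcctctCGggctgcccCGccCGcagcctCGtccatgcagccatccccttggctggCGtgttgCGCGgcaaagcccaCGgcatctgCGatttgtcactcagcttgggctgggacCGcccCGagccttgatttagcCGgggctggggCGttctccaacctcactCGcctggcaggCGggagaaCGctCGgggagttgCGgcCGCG

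In *Ftx*-/- females, the *Igf2r* probe, 1 of 3 *Mest* probes and the 2 brightest of 4 *Plagl1* probes were higher than in WT females, and 2 of 6 tested *H19* probes, the *Grb10* probe and a dim *Plagl1* probe were lower. With limma over all 20 eyes, 4 of 19 probes (3 genes) were higher and 4 (3 genes) lower at an adjusted p under 0.05. Of all 14052 probes, 16.8% were called higher and 18.3% lower, so the members' shares, 21.1% each way, were near the background. These changes were small, 1.22- to 1.29-fold for the 4 higher probes and 0.668 to 0.806 of the WT level for the 4 lower ones. The median log2 fold change was -0.23 over the 19 probes, 5 above 0 and 14 below, and -0.01 over all probes tested. With the study's limits on fold and unadjusted p (over 1.2 or under 0.8, p under 0.05) applied to limma's p, 8 of the 19 probes were called and 26.7% of all, and with the methods' t-test in place of limma 5 were called and 23.4% of all. The ranges of WT and *Ftx*-/- eyes did not overlap for 3 of the 19 probes, against 21.6% of all.

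**Figure D1:**
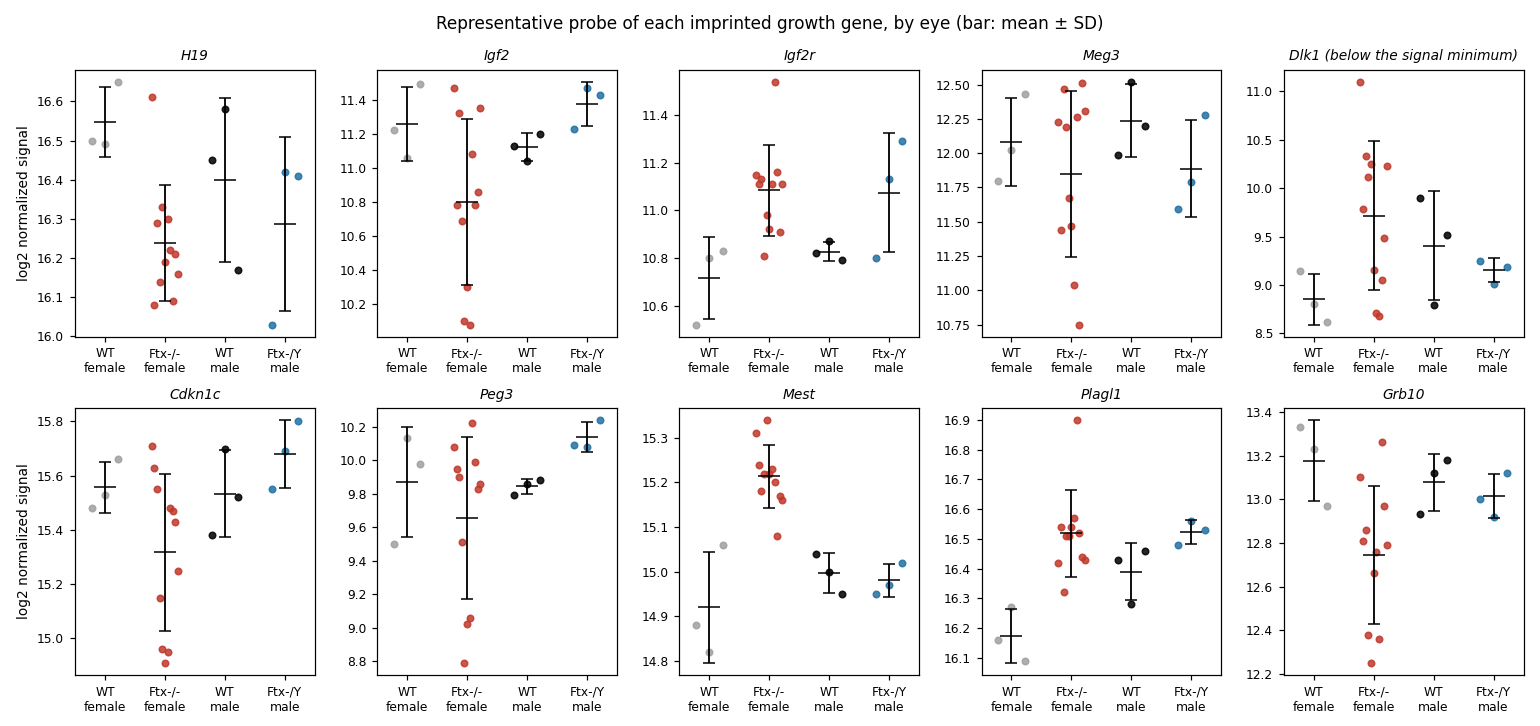
Log2 normalized signal of the representative probe (the brightest on average) of each gene, with 1 point per eye and the mean ± SD of each group of 3 or 11 eyes; every panel has its own axis. *Mest* and *Plagl1* are the genes whose 11 *Ftx*-/- female eyes all lie above the 3 WT female eyes. *Dlk1*, *Meg3*, *Igf2* and *Peg3* show the widest spread among the *Ftx*-/- females.

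*Mest*, a paternally expressed gene for a hydrolase-like protein of mesodermal tissues, had the smallest adjusted p of the 19 probes. Its brightest probe, A_51_P124535, stands on 10 spots of the array at chr6:30698279-30698338 (mm9). Its log2 signal was 14.88, 14.82 and 15.06 in WT females 1, 2 and 4, and 15.08 to 15.34 (median 15.22) in the 11 *Ftx*-/- females. The 11 mutant eyes all lay above the 3 WT eyes, the lowest of them by a narrow margin. The mean signal was 31100 in WT and 38000 in *Ftx*-/- females, a log2 fold change of 0.29 ± 0.0539 (SE; limma adjusted p = 0.000579). In males it was 14.95 to 15.04 in WT and 14.95, 14.97 and 15.02 in *Ftx*-/Y eyes, a change of -0.01 with a 95% interval of -0.15 to 0.13. The female change exceeded the male by 0.30 (interval 0.12 to 0.48; unadjusted p = 0.00233), which did not pass after adjustment in limma (0.168). The other *Mest* probes were not called and differed in sign in females, A_55_P2090025 at 0.18 (limma adjusted p = 0.373) and A_55_P2151868 at -0.23 (0.0644), with 10 of 11 mutant eyes below the WT mean on the latter.

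*Plagl1*, a paternally expressed zinc finger transcription factor that curbs proliferation and acts on other imprinted genes, had 2 bright and 2 dim probes, with log2 fold changes of opposite sign. Probe A_55_P1961968 had log2 signals of 16.16, 16.27 and 16.09 in WT females and 16.32 to 16.90 (median 16.51) in *Ftx*-/- females, with no overlap. It was higher by 0.34 ± 0.0802 (limma adjusted p = 0.00313). Probe A_52_P532456, further 3′, was higher by 0.31 ± 0.0938 (limma adjusted p = 0.0144), with 15.95 to 16.18 in WT and 16.17 to 16.82 in mutant eyes. That call was lost in 8 of 19 alternatives, among them leaving out WT female 1 or 4 (0.0514 and 0.0938) and the 75th percentile (0.0654). Dim probe A_55_P1961965, at the 5′ end of the 4, fell from 9.06 to 9.66 in WT females to 8.39 to 9.03 (median 8.75) in *Ftx*-/- females, by 0.58 on the log2 scale (SE 0.14, limma adjusted p = 0.00393), again with no overlap. This probe passed the minimum through WT females, where its mean signal was 631 against 418 in *Ftx*-/- females and 483 over all 20 eyes, and fitted over all probes with no minimum it had a limma adjusted p of 0.00781. Without WT female 1 it was at -0.39 and not called (limma adjusted p = 0.0642). Its neighbour A_55_P2153251 had a log2 fold change of -0.42 and an adjusted p of 0.0689 by limma, so it was not called. In males, all 3 *Ftx*-/Y eyes were above the WT males in A_55_P1961968 (16.48 to 16.56 against 16.28 to 16.46) and below them in A_55_P1961965 (8.73 to 8.97 against 9.06 to 9.43). Neither male difference passed limma (adjusted p = 0.624 and 0.446), and with the series table the male change of A_55_P1961968 was -0.07 in place of 0.14.

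**Figure D2:**
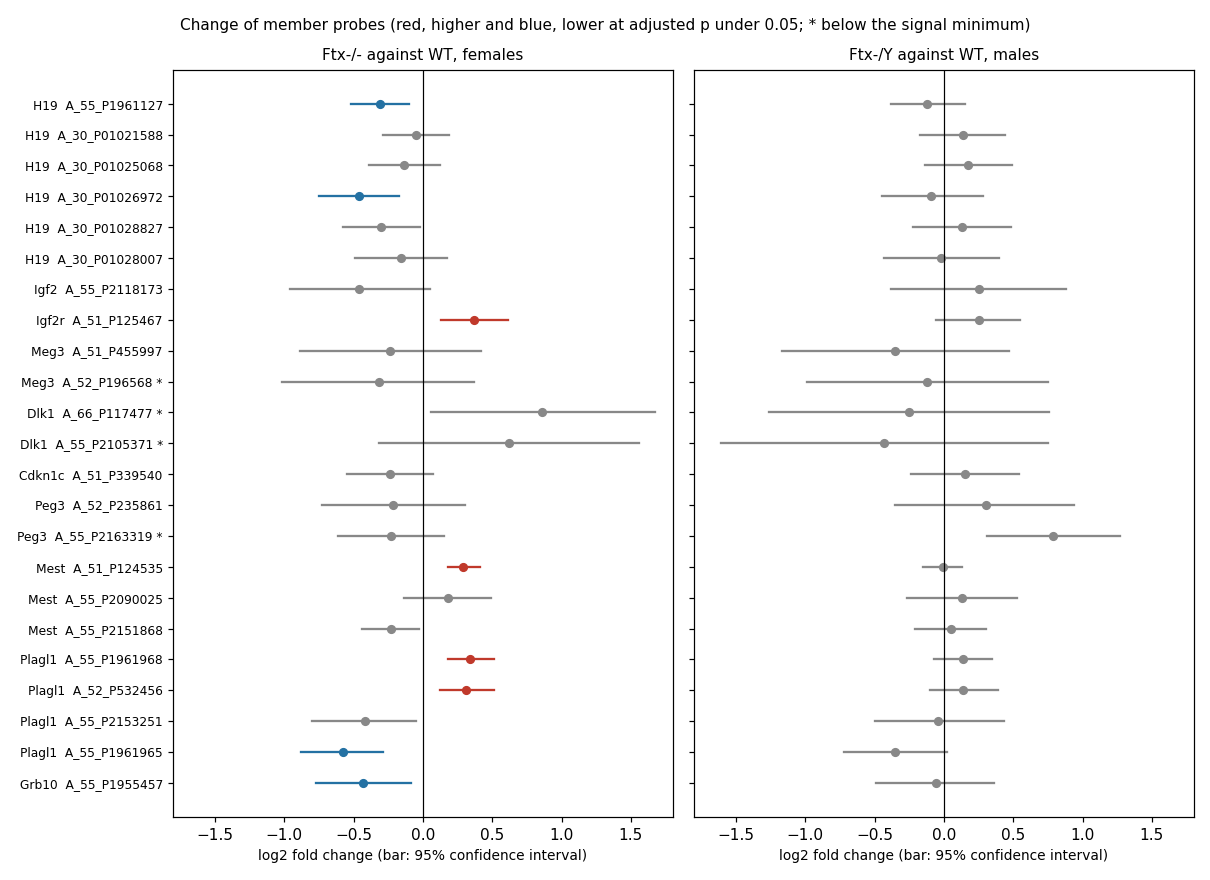
Log2 fold change of mutant against WT with 95% confidence interval for the probes of the 10 genes, females at left and males at right. Grey marks probes not called, and a star those under the signal minimum, which were fitted over all probes. Left out are 1 *H19* probe near background and the brighter of the *Meg3* probes under the minimum. The 8 called probes are all in the female panel, and the 4 *Plagl1* probes lie on both sides of 0 there.

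*Igf2r*, the maternally expressed receptor that takes up and clears IGF2, was higher in *Ftx*-/- females. Its probe A_51_P125467 had log2 signals of 10.52, 10.80 and 10.83 in WT females and 10.81 to 11.54 (median 11.11) in *Ftx*-/- females, so that the ranges overlapped narrowly. The rise was 0.37 ± 0.116 (limma adjusted p = 0.0191), or from 1690 to 2190 in signal, and all 11 mutant eyes exceeded the WT mean. Without WT female 1 it was 0.27 and not called (limma adjusted p = 0.155), and with slide as a fixed block it was 0.01 (0.992). In males the values were 10.79 to 10.87 in WT and 10.80, 11.13 and 11.29 in *Ftx*-/Y eyes, a log2 fold change of 0.25 (interval -0.06 to 0.55; limma adjusted p = 0.523). The difference between the sexes' changes was 0.12, with an interval of -0.27 to 0.51. The sign of the male *Igf2r* change was not stable, at -0.03 with slide as a fixed block and within slide 1, where *Ftx*-/Y eye 1 (10.80) lay in the range of the WT males.

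*Igf2*, the paternally expressed growth factor itself, was not called. Its probe A_55_P2118173, at chr7:149839661-149839720 (mm9), had log2 signals of 11.22, 11.06 and 11.49 in WT females and 10.08 to 11.47 (median 10.78) in *Ftx*-/- females. The log2 fold change was -0.46 with an interval of -0.96 to 0.05 (limma adjusted p = 0.149). In males all 3 *Ftx*-/Y eyes (11.23, 11.47 and 11.43) were above the WT males (11.04 to 11.20), with a log2 fold change of 0.25 and an interval of -0.38 to 0.88. The mutant males thus lay on the other side of their WT group than most mutant females, and the difference between these changes, -0.71, had an interval that spans 0 (-1.52 to 0.10; limma adjusted p = 0.427).

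*H19*, the maternally expressed noncoding RNA that shares enhancers with *Igf2*, was lower in *Ftx*-/- females by 2 of its 6 tested probes. The brightest, A_55_P1961127, had log2 signals of 16.50, 16.49 and 16.65 in WT and 16.08 to 16.61 (median 16.21) in *Ftx*-/- females. It fell by 0.31 on the log2 scale (SE 0.102, limma adjusted p = 0.0235), with 10 of 11 eyes below the WT mean and eye 1 within the WT range. This call was lost when WT female 1, 2 or 4 was left out (limma adjusted p = 0.058, 0.0507 and 0.121). The 5′-most tested probe, A_30_P01026972, fell by 0.46 (SE 0.139, limma adjusted p = 0.0158), from 13.15 to 13.69 in WT to 12.58 to 13.35 in mutant females. It was not called without WT female 1 or 4 (0.117 and 0.092). The probe that abuts it, A_30_P01028827, had a log2 fold change of -0.30 and an adjusted p of 0.0912 by limma. The 3 probes between these and the last had log2 fold changes of -0.16, -0.14 and -0.05 and were not called. On A_30_P01026972 the WT males (12.92 to 13.20) also lay lower than WT females, by 0.45 (interval 0.08 to 0.81; limma adjusted p = 0.388), and *Ftx*-/Y males were at 12.84 to 13.05. WT female 2 was the lowest WT female in all 6 tested *H19* probes.

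*Grb10*, a maternally expressed adaptor (paternally expressed in neurons) that dampens insulin and IGF1 receptor signalling, fell in *Ftx*-/- females. Its log2 signal was 13.33, 13.23 and 12.97 in WT and 12.25 to 13.26 (median 12.79) in mutant females. The fall was by 0.43 (SE 0.162), just past the threshold (limma adjusted p = 0.0449), and the ranges overlapped. The call was lost in 13 of 19 alternatives, among them the 75th percentile (0.0739), no minimum (0.0737) and leaving out WT female 1 or 2 (0.198 and 0.138). Male values were 12.93 to 13.18 in WT and 12.92 to 13.12 in *Ftx*-/Y eyes, a log2 fold change of -0.06 (interval -0.49 to 0.36).

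*Cdkn1c*, the maternally expressed inhibitor of cyclin-dependent kinases, and *Peg3*, a paternally expressed zinc finger protein, were not called. *Cdkn1c* had log2 signals of 15.48 to 15.66 in WT and 14.91 to 15.71 (median 15.43) in *Ftx*-/- females, with a log2 fold change of -0.24 (interval -0.55 to 0.07; limma adjusted p = 0.223). *Peg3* probe A_52_P235861 had 9.50 to 10.13 in WT and 8.79 to 10.22 in mutant females, and a log2 fold change of -0.22 (interval -0.73 to 0.30). In males both had positive log2 fold changes, 0.15 for *Cdkn1c* and 0.30 for *Peg3*, with intervals across 0, and the *Ftx*-/Y eyes were all above the WT males for *Peg3* (10.08 to 10.24 against 9.79 to 9.88). The second *Peg3* probe, A_55_P2163319, was under the minimum at 135 in WT females. WT males stood apart on it, at log2 signals of 6.09, 5.96 and 6.79, against 6.94 to 7.23 in WT females and 6.94 to 7.19 in *Ftx*-/Y males. With no minimum, the male log2 fold change was 0.79, not called by limma (adjusted p = 0.17).

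*Meg3*, the maternally expressed noncoding RNA of the *Dlk1* locus, varied by more between *Ftx*-/- eyes than between groups. Probe A_51_P455997 had log2 signals of 11.80, 12.02 and 12.43 in WT and 10.75 to 12.51 (median 12.19) in *Ftx*-/- females, and a log2 fold change of -0.24 (interval -0.89 to 0.42). Eyes 7 and 9 were lowest on it, at 11.04 and 10.75. In males the log2 fold change of A_51_P455997 was -0.35 (interval -1.17 to 0.47), with 11.99 to 12.52 in WT and 11.59 to 12.28 in *Ftx*-/Y eyes.

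*Dlk1*, a paternally expressed membrane protein of the Notch ligand type that is made by mesenchymal and precursor cells, had no probe past the minimum. Probe A_66_P117477 gave a mean signal of 468 in WT females, and log2 signals of 9.14, 8.80 and 8.62 there against 8.68 to 11.10 (median 9.78) in *Ftx*-/- females. Of the 11 mutant eyes, 9 exceeded the WT mean, and eye 1 was the highest. With no minimum, the log2 fold change was 0.86 (interval 0.06 to 1.67; limma adjusted p = 0.139 over all probes). Over 18 alternatives it was 0.51 to 1.69, past the threshold in 2 of them (lowest limma adjusted p = 0.0146). The second probe, A_55_P2105371, gave 0.62 (interval -0.32 to 1.56). In males A_66_P117477 was at 9.90, 8.79 and 9.52 in WT and 9.25, 9.01 and 9.19 in *Ftx*-/Y eyes.

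Markers of periocular mesenchyme, the connective tissue around the eye, were highest in several of the eyes with high *Dlk1*. The summed signal of the 10 markers, of which 7 were well above background on every WT female array and 1 on none, was 3930 to 5670 in WT females, 5390 to 12600 in WT males, 5000 to 9440 in *Ftx*-/Y males and 5910 to 46100 in *Ftx*-/- females. It was highest in *Ftx*-/- eyes 1, 5 and 4 (46100, 29500 and 22300), where the log2 signal of *Dlk1* was 11.10, 10.25 and 10.12. In eyes 8, 7 and 9 it was 8600, 6520 and 6120, with *Dlk1* at 8.68, 8.71 and 9.05. Eye 3 had *Dlk1* at 10.33 with a marker sum of 9080, and eye 10, with the lowest sum of the *Ftx*-/- eyes (5910), had *Dlk1* at 9.48, above all WT females. Only *Col1a2*, a collagen chain, passed the minimum among these markers, and it was higher in *Ftx*-/- females by 1.09 (limma adjusted p = 0.0471). The part of such tissue in the level of *Dlk1* was not tested.

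**Figure D3:**
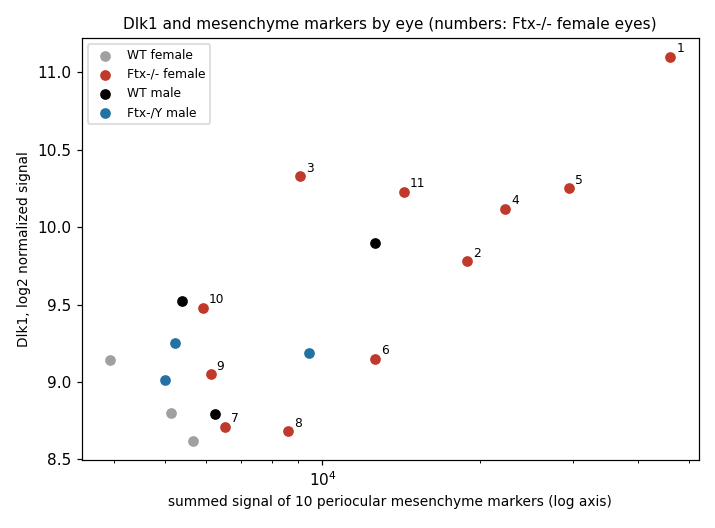
Log2 normalized signal of *Dlk1* probe A_66_P117477 against the summed signal of 10 periocular mesenchyme markers (log axis), 1 point per eye, numbered for the *Ftx*-/- females. Eye 1 is highest on both axes, and the WT female eyes lie at the lower left with *Ftx*-/- eyes 7, 8 and 9.

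Other markers were looked at too. Of all probes, 16.8% were called higher and 18.3% lower in *Ftx*-/- females. Except for the lens list, counts this small do not set a list apart from those shares. Of 10 lens markers 8 were lower in *Ftx*-/- females and 0 higher (median log2 fold change -0.87), with a summed signal of 737000 to 946000 against 910000 to 1020000 in WT females. Of 9 tested retinal neuron markers 4 were lower and 2 higher, and of 10 retinal progenitor markers 2 were higher and 0 lower. In males 0 genes of any marker list were called by limma, and the median of the lens list was -0.05. Pigment epithelium markers summed to 5400 to 7880 in WT and 3480 to 34800 in *Ftx*-/- females, with 1 of 3 tested genes called higher. Erythroid markers had 2 of 7 tested genes higher in *Ftx*-/- females and a median log2 fold change of 0.94 in males with 0 called (sum 207000 to 263000 in WT and 306000 to 656000 in *Ftx*-/Y males), endothelial markers 0 of 3 called and macrophage markers 1 of 4 higher. Skeletal muscle markers, of which 0 reached the minimum, summed to 516 to 609 in WT and 454 to 3300 in *Ftx*-/- females. The part of these tissues in the levels of the imprinted genes was not tested.

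In males, 0 of 19 member probes passed limma, against 0.0213% of all probes (3, or 369 without WT male 3, where 0 members were called), and 0 passed at an unadjusted p under 0.05, against 11.8%. The study's limits on fold and unadjusted p called 0 members and 5.64% of all probes with limma's p, and 1 member and 2.94% of all with the methods' t-test. The ranges of WT and *Ftx*-/Y eyes did not overlap for 4 of the 19 member probes (21.1%), in *Igf2*, *Peg3* and *Plagl1*, and for 20.5% of all. Between WT females and WT males, 0 of 19 members passed, against 0.0712% of all probes, and 2 members (*H19* A_30_P01026972 and *Plagl1* A_55_P1961968) had an unadjusted p under 0.05, against 10.2%. For *Plagl1*, WT females minus WT males was -0.22 (interval -0.43 to -0.01; limma adjusted p = 0.469). Neither of these WT differences passed limma, and 2 of 19 members (10.5%) is near the share of all probes. On both probes the WT females, the control of the female comparison, lay away from WT males in the direction opposite to the female change. Whether this has a part in the female changes was not tested. For the difference between the female and male changes, 0 members and 0% of all 14052 probes passed, and 1 member (*Mest* A_51_P124535) had an unadjusted p under 0.05, against 13.9%. No effect of *Ftx* on a member was thus shown to differ between the sexes.

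In *Mest* and *Plagl1*, the female log2 fold change was negative at the 5′ end and positive at the 3′ end, though not every probe was called. From 5′ to 3′, the mean log2 signal was 10.98, 14.14 and 15.1 along *Mest* and 8.88, 9.68, 16.45 and 16.32 along *Plagl1*. Position and brightness of a probe therefore cannot be told apart here. In *Mest*, the 5′-most probe A_55_P2151868 had a log2 fold change of -0.23 in females (limma adjusted p = 0.0644), the middle probe A_55_P2090025 of 0.18 (0.373), and the 3′-most probe of 0.29 (called). The level of one probe cannot be set against that of another, but the distance between both within an eye can be compared across groups. From the 5′-most to the 3′-most *Mest* probe, the log2 distance was 3.52 to 3.88 in WT females and 4.08 to 4.61 in *Ftx*-/- females, without overlap, and 3.88 to 4.31 in WT and 3.96 to 4.01 in *Ftx*-/Y males. In *Plagl1* it was 6.43 to 7.07 in WT and 7.35 to 8.44 in *Ftx*-/- females, and 6.89 to 7.14 in WT and 7.32 to 7.73 in *Ftx*-/Y males, so that neither sex overlapped. Such distances between the outermost tested probes of a gene failed to overlap in 20% of 1383 genes in females (15.1% with all mutant eyes above all WT eyes) and in 20.6% of 1377 genes in males (7.41% above). In *H19* the ranges overlapped, with a mean distance of 3.05 (SD 0.26, 3 eyes) in WT females against 3.20 (SD 0.18, 11 eyes) in *Ftx*-/- females.

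**Figure D4:**
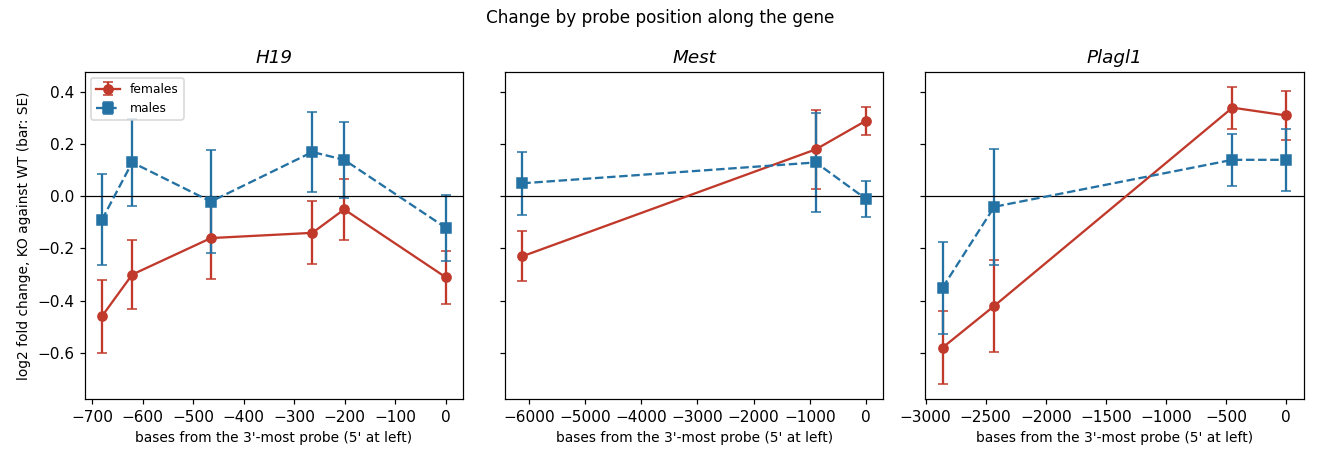
Log2 fold change ± SE by probe position along *H19*, *Mest* and *Plagl1*, as bases upstream of the 3′-most probe with 5′ at left, in females and males. In females the fold change goes from -0.23 to 0.29 along *Mest* and from -0.58 to 0.31 along *Plagl1*, and the last *H19* probe departs from the order of the others.

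The same order was looked for in all genes with tested probes 300 to 300000 bases apart on 1 strand, after the pattern had been seen in the members. Over 1383 such genes, the 3′-most probe had the higher female log2 fold change in 65.9%, with a median difference of 0.13. In males this was 45.8%, with a median of -0.02, and for WT females minus WT males 37.1%, with a median of -0.06. Taken against the mean of the WT females, the median of this distance was -0.03 to 0.04 in WT female eyes, 0.04 to 0.09 in WT males, 0.03 to 0.05 in *Ftx*-/Y males and 0.03 to 0.21 in *Ftx*-/- females. It was 0.16 to 0.21 in the *Ftx*-/- eyes of slide 3, 0.03 to 0.07 in those of slide 2 and 0.06 to 0.17 in those of slide 4, where eye 8, the eye with the highest *Plagl1*, was at 0.17. The part of RNA quality in the changes of *Mest* and *Plagl1* was not tested.

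Among the 11 *Ftx*-/- females, some member probes differed between slides, as did many others, which was tested after seeing the data. In limma, 5 of 19 member probes (26.3%) differed between slides 2, 3 and 4 at an adjusted p under 0.05. Over all probes the share was 34.7%, so differing by slide was not particular to the members. *Cdkn1c* was at log2 signals of 15.55 to 15.71 on slide 2, 14.91 to 15.15 on slide 3 and 15.25 to 15.48 on slide 4 (limma adjusted p = 0.000256), 3 ranges that do not overlap. *Igf2* was at 10.08 to 10.69 on slide 3 and at 10.78 to 11.47 on the others (limma adjusted p = 0.00965), and *Peg3* A_52_P235861 at 8.79 to 9.51 against 9.83 to 10.22 (0.00124). *Mest* A_55_P2090025 was also lowest on slide 3 (13.77 to 14.03, limma adjusted p = 0.00038), while *H19* A_30_P01028007 was highest there (13.05 to 13.36, limma adjusted p = 0.0287). Each slide holds its own eyes, so that slide and eye cannot be told apart.

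**Figure D5:**
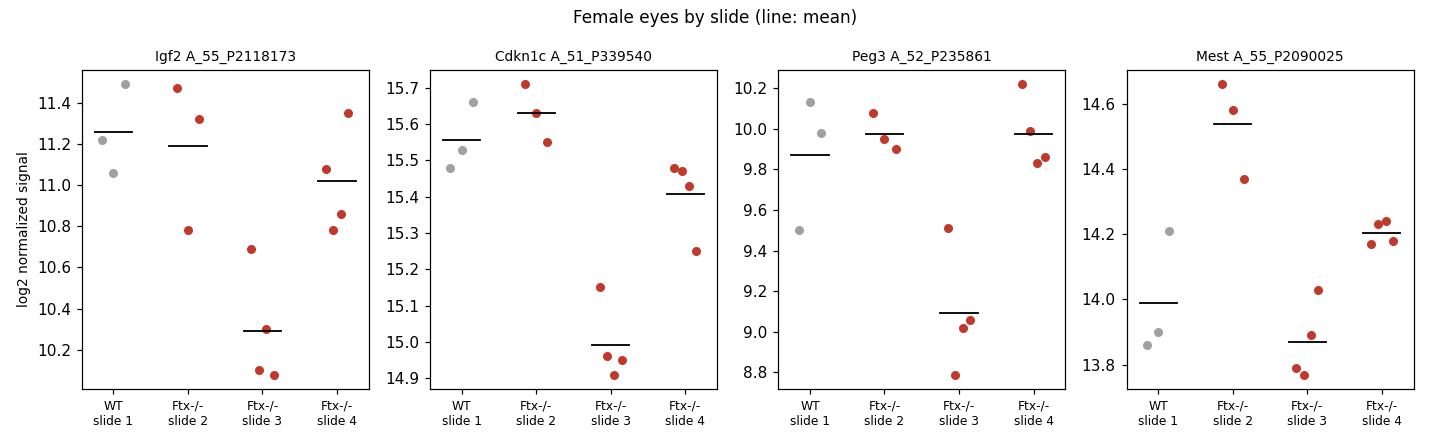
Log2 normalized signal in female eyes by slide for *Igf2*, *Cdkn1c*, *Peg3* and *Mest* A_55_P2090025, 1 point per eye with the mean as a line, WT on slide 1 and *Ftx*-/- on slides 2 to 4. The 4 eyes of slide 3 are the lowest *Ftx*-/- eyes in each panel.

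The *Ftx*-/- eyes of each slide were also set against the WT females. These comparisons share the same 3 WT eyes, so they are not independent of each other, and their values are given side by side. Of all probes, 35.2%, 49.5% and 29% were called with the eyes of slides 2, 3 and 4 alone. More probes thus passed with slide 3 in general, not only members. *Mest* A_51_P124535 was higher by 0.32, 0.33 and 0.23 with the eyes of slides 2, 3 and 4 alone, past the threshold each time (limma adjusted p = 0.00542, 0.00102 and 0.0169). *Plagl1* A_55_P1961968 gave 0.25, 0.36 and 0.40, past the threshold each time, and A_55_P1961965 gave -0.70, -0.53 and -0.55. *H19* A_55_P1961127 gave -0.22, -0.31 and -0.38 and missed the threshold on slide 2 (limma adjusted p = 0.259), and A_30_P01026972 gave -0.52, -0.30 and -0.58 and missed it on slide 3 (0.0541). *Igf2r* gave 0.42, 0.24 and 0.47 and missed the threshold on slide 3 (limma adjusted p = 0.0942). *Grb10* passed only on slide 3, where it was lower by 0.67 on the log2 scale. Its difference between slides 2, 3 and 4 did not pass in limma (adjusted p = 0.182). *Igf2* gave -0.06, -0.96 and -0.24 and passed only on slide 3 (limma adjusted p = 0.000189). *Cdkn1c* gave 0.08, -0.56 and -0.15, and *Peg3* 0.10, -0.78 and 0.10, both past the threshold only on slide 3. Without the eyes of slide 3, an alternative added after seeing the data, 7 member probes were called, 5 higher and 2 lower, and 4766 of all 14052 probes, against 4928 with all eyes.

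These calls rest on 3 WT female eyes of 1 slide. Without WT female 1, 2 member probes were called (both higher), and without WT female 4, 5 were (3 higher, 2 lower), against 8 with all eyes. Over all 14052 probes the count of calls fell too, from 4928 to 3140 without WT female 1 and to 3817 without WT female 4. With slide as a fixed block, in which only the *Ftx*-/Y eyes link slide 1 to another slide, 0 members were called in females by limma (11 of all 14052 probes). The log2 fold changes under that block were 0.27 for *Mest* A_51_P124535, -0.61 and -0.70 for *H19* A_55_P1961127 and A_30_P01026972, -0.27 for *Grb10*, 0.01 for *Igf2r*, and 0.19, 0.08 and -0.53 for *Plagl1* A_55_P1961968, A_52_P532456 and A_55_P1961965. As a random block 2 members and 17.6% of all probes were called, the members being *Mest* A_51_P124535 (0.28, adjusted p = 0.0135) and *H19* A_55_P1961127 (-0.41, adjusted p = 0.043).

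Partners of imprinted loci were compared within the 11 *Ftx*-/- females, as 4 pairs of representative probes. *Igf2* and *H19* had a Pearson r of 0.21 (rho 0.06), *Dlk1* and *Meg3* of 0.50 (rho 0.40), *Plagl1* and *H19* of -0.20 (rho -0.23) and *Plagl1* and *Igf2* of -0.21 (rho -0.58). The permutation p of r was 0.55, 0.119, 0.462 and 0.556, or 0.474 to 0.556 after Benjamini-Hochberg adjustment over the 4 pairs, and the permutation p of rho was 0.86, 0.223, 0.503 and 0.0652. With the slide means taken out, r was 0.34, 0.54, -0.03 and -0.19, none of them past the threshold by permutation within slides. Without the 2 eyes farthest from the median of the first gene, r was -0.16, 0.71, -0.40 and -0.83, and the last passed the threshold (permutation p = 0.0066, adjusted 0.0264). The eyes left out for *Plagl1* were 8 and 3, its highest and lowest *Ftx*-/- eyes (16.90 and 16.32), so the value of this pair depends on which eyes enter.

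For each member, 9484 other named genes were ranked by Pearson correlation with its representative probe over the 20 eyes, after group means had been taken out. The closest were *Lats2*, *Eif4g1* and *Ttc1* for *H19* (0.81, 0.81 and 0.79), *Psmd9*, *Tcf3* and *Slc43a3* for *Igf2* (0.86, 0.85 and 0.85) and *Srrm1*, *Rev3l* and *Phf12* for *Igf2r* (0.89, 0.85 and 0.85). For *Meg3* they were *Snhg7*, *Ddx26b* and *Gm4130* (0.89, 0.84 and 0.83), and for *Dlk1* the connective tissue gene *Aebp1* with *Rbms1* and *Cst3* (0.89, 0.86 and 0.86). For *Cdkn1c* they were *Trp53*, *Ppig* and *Crk* (0.95, 0.93 and 0.93), and for *Peg3* *Gm6115*, *G2e3* and *Hmgb1* (0.96, 0.95 and 0.93). For *Mest* they were *Sspn*, *Slc38a4* and *Pttg1ip* (0.85, 0.83 and 0.81), of which *Slc38a4*, an amino acid transporter, is itself imprinted. For *Plagl1* they were *Setd2*, *Tmem131* and *Asxl3* (0.93, 0.92 and 0.91), and for *Grb10* *Zfp146*, *Mfap1b* and *Pkn2* (0.92, 0.91 and 0.91). All values of an eye share its array and slide, and these correlations are descriptions.

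Of 53 other imprinted genes listed, 51 had a probe and 25 were tested. In *Ftx*-/- females 5 were higher, 6 lower and 14 not called, near the 16.8% and 18.3% of all probes, with a median log2 fold change of -0.12 (-0.01 over all probes), and in males 0 were called. *Blcap*, a tumour suppressor gene that hosts *Nnat* in an intron, rose by 1.26, from a signal of 549 ± 97.5 (SD, n = 3) to 1360 ± 383 (SD, n = 11) (limma adjusted p = 0.000898). In males its log2 fold change was 0.64 (limma adjusted p = 0.424). The log2 signals were 9.09 to 9.72 in WT and 9.73 to 10.17 in *Ftx*-/Y males. *Nnat*, looked at after the female *Blcap* value was seen, had a female log2 fold change of -0.12 (limma adjusted p = 0.528). *Zrsr1*, a splicing factor gene, and *Slc38a4* rose by 0.52 and 0.45. *Trappc9* and *Peg13*, the noncoding RNA within its intron, both fell by 0.47, and *Begain*, near *Dlk1*, fell by 0.33.

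Of 26 genes of the IGF and insulin axis, 13 were tested, 3 were higher in *Ftx*-/- females and 0 lower, beside 16.8% and 18.3% of all probes, and counts this small do not set the list apart from them. The binding protein gene *Igfbp2* rose by 0.45 and the RNA binding protein gene *Igf2bp3*, whose product binds *Igf2* mRNA, by 0.34 (limma adjusted p = 0.0289 and 0.00392). The receptor gene *Igf1r*, named after its value was seen, was at 0.12 and not called (limma adjusted p = 0.425). Of 6 other cyclin-dependent kinase inhibitors, 3 were tested, and *Cdkn1b* rose by 0.18 (limma adjusted p = 0.0201). Its mean signal was 6290 in WT and 7120 in *Ftx*-/- females, both below the 7460 of WT and 7330 of *Ftx*-/Y males. Of 17 regulators of imprints, 12 were tested, 3 were higher and 2 lower, near the same shares of all probes. *Smchd1*, a chromatin protein of the inactive X chromosome and of imprinted clusters, rose by 0.51. The demethylation enzyme gene *Tet2* rose by 0.40 and *Suz12*, of the Polycomb complex, by 0.28. Mean signals of these 3 were 10400, 1130 and 2430 in WT females, below the 12900, 1440 and 2700 of WT males. In *Ftx*-/- females they were 14700, 1490 and 2960. *Dnmt1*, the maintenance methyltransferase gene, fell by 0.36, and *Trim28*, a corepressor that protects imprints, by 0.32, and all 11 *Ftx*-/- eyes were below the WT mean for both. In males, 0 genes of these 3 lists were called by limma, although some male log2 fold changes were of like size, -0.34 for *Dnmt1* and 0.40 for *Igfbp2* (limma adjusted p = 0.344 and 0.427). For the difference between the sexes 0 of the lists' genes passed, so none of these changes was shown to be particular to females.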

How the data were processed

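Total RNA of 20 E13.5 eyes was measured on 31 arrays. The authors deposited background-subtracted intensity values from the scanner software (Feature Extraction 11.0.1.1, mm9 probe positions) for 62976 spots of each array, and a series table that holds these intensities in rounded form, without normalization between arrays. From these, 59305 spots of probes were normalized here by the qspline method that the study names (100 quantiles, 5 rounds, offset 5), rebuilt in R 4.3.3. Non-uniform spots (120) and spots marked as outliers among copies of a probe (5639) were dropped. Log2 values were averaged over copies, and over both arrays of each *Ftx*-/- eye. Testing was limited to probes with a signal above 500, the minimum the study names, which was applied here to the mean of the WT females. limma 3.58.1 (lmFit, eBayes with trend) was fitted to all 20 eyes with Benjamini-Hochberg adjustment. The number of arrays limits the precision: the median SE of a log2 fold change was 0.0933 in females and 0.117 in males. The study's methods say in general that samples were biologically independent, but which eye came from which animal is not given in the sources used here, and p-values measure the spread between these eyes.

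The representative probe of a gene is the brightest on average over the 20 eyes. Every probe of the 10 genes is counted, and of the other lists at most the 3 largest called rises and falls in females are named, with exceptions stated, and per gene the 3 closest by correlation. Some items covered by these rules are not reported here. Members and lists were chosen with earlier results of these data known. Correlations of pairs were tested by 100000 two-sided permutations. For a test on simulated data, 200 of 14052 probes were shifted by 1 (log2). The fit recovered 92.5% in the female and 91.5% in the male design, with 8 and 6 false calls. The simulated spread was independent between eyes and held no effect of slide. These rates thus do not cover smaller shifts, such as those called here, or calls that follow the slide. As alternatives, normalization (75th percentile, quantile, normexp with offset 50, the series table), filters, single arrays, single eyes, slides and replicate numbers as blocks, and the study's criteria and t-test were varied. RefSeq (GRCm38.p6) held 11 of the members' 12 transcript accessions, and was used for names and promoter windows.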

Additional observations from a re-analysis of the deposited data

How the results depend on the processing

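For the count of 8 member probes called in females, the other normalizations between arrays, the other filters, either array alone, the 2 groups alone, each single slide and the study's criteria from limma gave 6 to 12, with 15.8% to 49.5% of all probes called. The series table without normalization gave 4 (all higher; 20.2% of all probes), slide as a fixed block 0 (0.0783%) and as a random block 2 (17.6%), the replicate block 5 (23.1%), and the methods' t-test 5 by fold and unadjusted p (23.4%) and 3 after Benjamini-Hochberg adjustment (24.5%). Leaving out a WT female gave 2 to 8 (22.3% to 27.2%). In males the methods' t-test by fold and unadjusted p called 1 member instead of 0 (2.94% of all probes), and for WT females against WT males the study's criteria called 1 (4.36%). The other counts of 0 stayed 0 in the alternatives run for them, leave-one-out included. The study's criteria were not run as an alternative for the difference between the sexes, where *Mest* A_51_P124535 meets them (1.23-fold, unadjusted limma p = 0.00233). Same-numbered eyes did not deviate together (correlations -0.22 to 0.14 over 6 pairs), so the replicate numbers were not taken as pairing, and the block changed no other count of members.

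With the series table, log2 fold changes of opposite sign were 0.05 for *Meg3* and 0.06 for *Peg3* in females and -0.01 for *Cdkn1c* and -0.07 for *Plagl1* in males. With slide as a fixed block they were 0.04 for *Peg3* in females and -0.03 for *Igf2r* in males, which was also -0.03 within slide 1. With the eyes of slide 2 alone they were 0.08 for *Cdkn1c* and 0.10 for *Peg3*, and *Peg3* gave 0.10 with slide 4 alone and without slide 3. In males, leaving out 1 eye at a time gave -0.04 to 0.01 for *Mest* and -0.23 to 0.01 for *H19*, the highest without *Ftx*-/Y eye 1 (for *Mest* also without WT male 1). Of the pairs, *Igf2* with *H19* had r = -0.02 with the 75th percentile, -0.22 with the series table and -0.16 without the 2 farthest eyes, *Plagl1* with *H19* 0.69 with the series table and 0.01 with the first arrays, and *Plagl1* with *Igf2* -0.83 without the 2 farthest eyes. The causes were not tested. *Mest* A_51_P124535 kept its call in 18 of 19 alternatives (0.23 to 0.55), *Plagl1* A_55_P1961968 in 17 (0.19 to 0.50) and A_55_P1961965 in 15 (-0.77 to -0.32), *Igf2r* in 14, *H19* A_30_P01026972 in 12, *H19* A_55_P1961127 and *Plagl1* A_52_P532456 in 11 each, and *Grb10* in 6. Alternatives that share the WT eyes are not independent.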
